A study of Mus musculus and Homo sapiens with 15 samples.

Results

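The 30 genes described here carry the signal of the T-cell receptor, from the CD3 subunits at the membrane to the first target genes in the nucleus. They were taken as a fixed list of gene symbols. All 30 were found in the table of 52340 mouse genes measured in thymus tumours and in the table of 56691 genes measured in grafted tumours, and all 30 passed the low-count filter in both. RNA sequencing compared tumours given arsenic trioxide (ATO) with tumours given water or PBS; ATO is an arsenic drug used against acute promyelocytic leukaemia that has also been studied for its binding to mutant p53. The thymus samples came from W/W mice, which carry the R282W form of p53 on both alleles and develop T-cell lymphoma, and were taken on day 150. Of these 9 samples, 3 had received water, 3 had received ATO and had progressing tumours, and 3 had received ATO and had regressing tumours. Since outcome defines the ATO groups, treatment and outcome cannot be told apart in a comparison of either with water. The grafts are labelled as a CDX model in C57 mice of WT genotype, 2 given PBS and 2 given ATO. The labels do not name the grafted cells, do not say whether tumours were pooled, and the hosts have T cells of their own. They also do not say that samples numbered as replicates came from separate animals, so p-values measure the spread between these samples, which may be technical in part.

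The T-cell receptor has no enzyme of its own. When it binds antigen, the kinase LCK phosphorylates the CD3 and zeta chains, ZAP70 docks there and phosphorylates the scaffold LAT, and LAT and SLP-76 gather phospholipase C gamma 1, VAV1 and other effectors. Calcium then activates the NFAT factors, and diacylglycerol activates RASGRP1 and protein kinase C theta, which leads through BCL10 and MALT1 to NF-kB. In the thymus the strength of this signal sets whether an immature T cell survives, and surface CD5 and the immediate early gene Nr4a1 are widely used as readouts of it.

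Total counts ranged from 12800367 to 17550594 per thymus library and from 12922147 to 15637644 per graft library, and mitochondrial genes took 2.08% to 8.83% and 0.521% to 5.98% of them. Levels are given as CPM, a gene's counts scaled to a common library total, on library sizes adjusted by TMM, the scaling of edgeR. The thymus and graft tables were scaled separately. Regressing replicates 1 and 2 resembled each other more than any other pair did, with a chi-square of 13.2 per gene against 114 and 141 for the other regressing pairs. They still differed by more than sampling noise and were counted as 2 samples. No member call of regressing against water was kept when regressing replicate 1 or 2 was left out. T-lineage marker genes were present in every group, with none of the 10 listed at 0 throughout a group. Their summed level was 2334 to 3672 CPM with water, 3194 to 5972 in progressing and 5407 to 9039 in regressing tumours, and 7923 to 8876 with PBS and 7344 to 7431 with ATO in grafts. Water replicate 2 had the highest summed levels of B-cell markers (3547 CPM) and of NK and cytotoxic markers (964 CPM). These are bulk tissues, so fewer T cells and less RNA of a gene per T cell cannot be told apart.

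In the thymus tumours, Cd247, Lck, Lat, Plcg1 and Themis were higher in regressing tumours than with water and Cblb was lower. Cd247 and Lat were higher in progressing tumours than with water, and Lcp2, Cd28, Icos, Cd2 and Cd5 were lower. Lcp2, Vav1, Cd28, Cd2 and Cd5 were higher in regressing than in progressing tumours. Against water, regressing tumours had 5 members higher and 1 lower at an adjusted p under 0.05, where 7.7% of all 18119 tested genes were called (3.13% higher, 4.57% lower). Progressing tumours had 2 members higher and 5 lower against water, with 11.9% of all genes called (4.77% higher, 7.13% lower). Between the outcomes, 5 members were higher in regressing tumours and 0 lower (0 lower also at an unadjusted p under 0.05 in edgeR and at an adjusted p under 0.05 in DESeq2), with 12.6% of all genes called (6.45% higher, 6.18% lower). In grafts, 2 members were higher with ATO (Plcg1 and Nfatc2) and 2 lower (Cd3d and Sh2d1a), with 13.9% of 15468 genes called (7.37% higher, 6.57% lower). Groups that did not overlap were more frequent. For regressing against water, 7 members were apart higher and 4 lower, beside 40.1% of all genes (19.3% higher, 20.9% lower). For progressing against water, 5 were apart higher and 7 lower, beside 26.6% (11.9% higher, 14.7% lower). In grafts, 6 were apart higher and 10 lower, beside 61.7% (31.7% higher, 30% lower). The members' median log2 fold change was 0.47 for regressing against water, -0.32 for progressing against water, 0.67 between the outcomes and -0.03 in grafts, beside -0.11, -0.04, -0.07 and 0.04 over all tested genes. For the 10 T-lineage marker genes the medians were 1.30, 1.31, 0.51 and 0.04 in the same order.

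**Figure D1:**
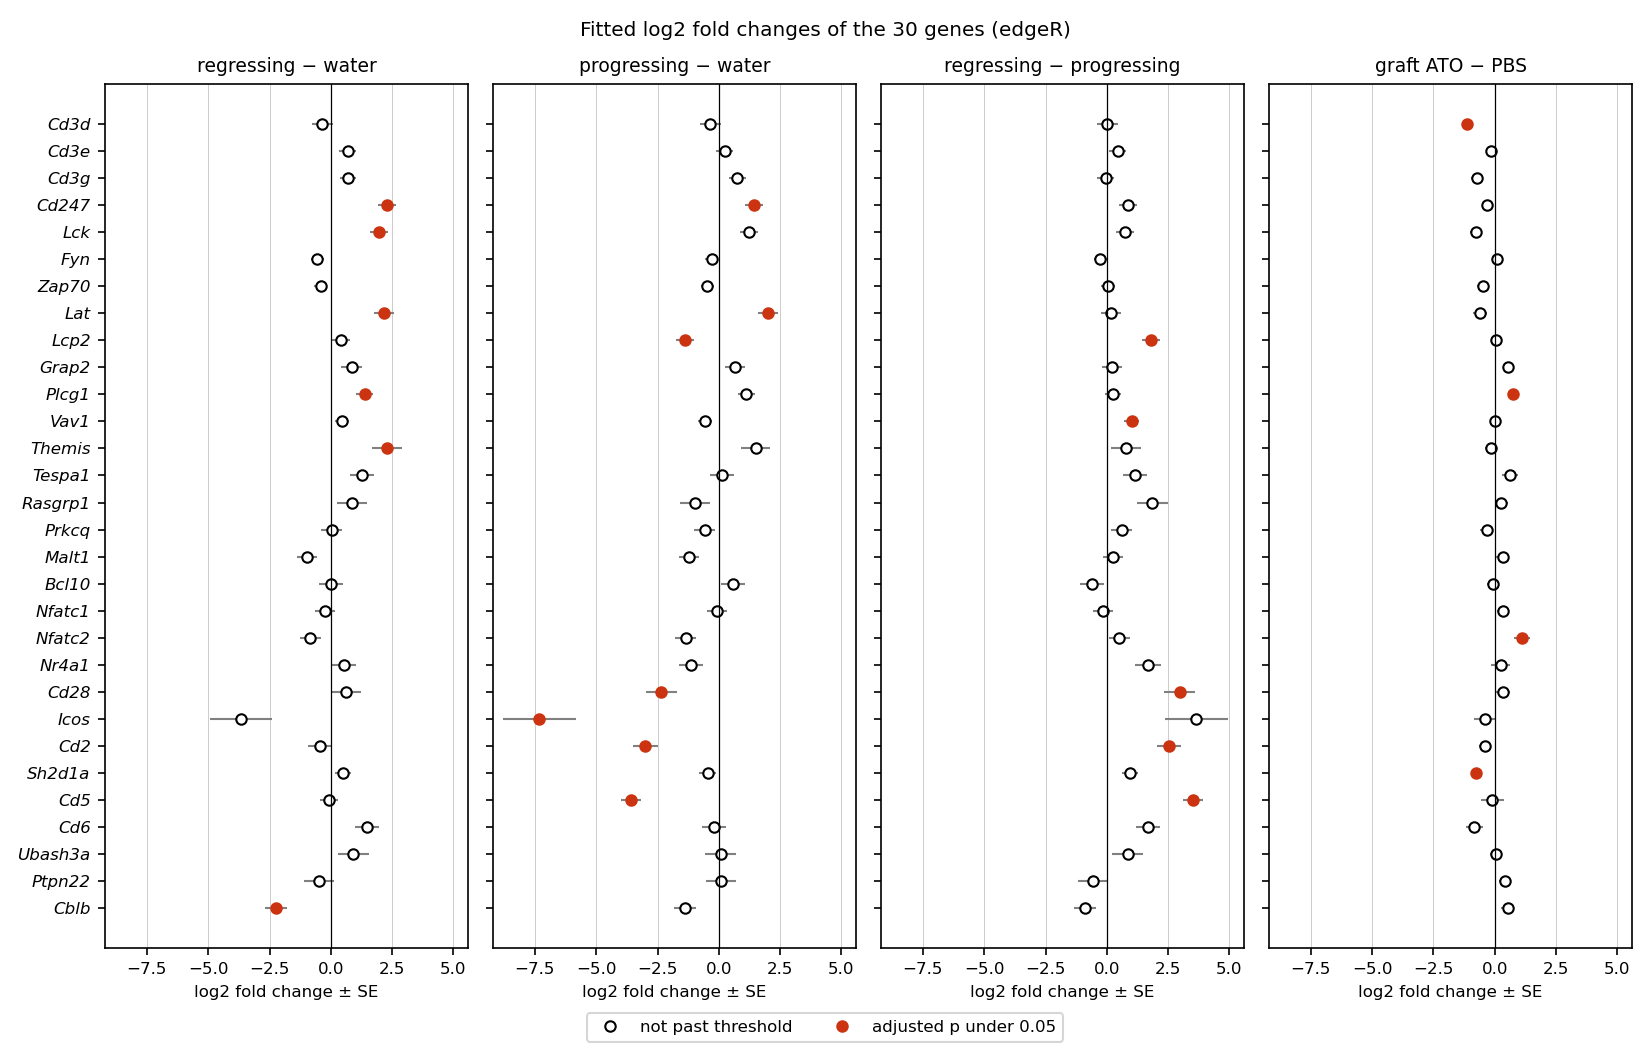
Fitted log2 fold changes of the 30 genes (rows) in 4 comparisons (panels), with bars of 1 standard error. Filled points passed an adjusted p under 0.05 in edgeR's quasi-likelihood test. Cd5 stands at -3.58 in the progressing against water panel and at 3.51 in the regressing against progressing panel.

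Cd3d, Cd3e and Cd3g encode the invariant CD3 chains, and Cd247 encodes the zeta chain that carries most of the phosphorylated motifs. Cd247 was at 69.4, 62.8 and 64.3 CPM with water, at 199.7, 123 and 211 in progressing and at 383, 405 and 183 in regressing tumours. All 6 ATO libraries lay above all 3 water libraries. The log2 fold change over water was 2.30 ± 0.37 (SE), edgeR adjusted p = 0.0106, in regressing tumours and 1.44 ± 0.36 (SE), edgeR adjusted p = 0.0282, in progressing tumours. Without regressing replicate 1 or 2 the first call was lost (2.12 to 2.69 over the libraries left out in turn), and the second was kept only without progressing replicate 2 (1.31 to 1.71). The T-lineage sum given above was also higher in regressing than in water libraries without overlap, and 3 of its 10 genes were called higher; its part in the Cd247 difference was not tested.

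The other 3 CD3 genes passed neither the edgeR nor the DESeq2 test in a thymus comparison, and the smallest unadjusted p was that of Cd3g in progressing against water (0.0446). Cd3d was at 261, 283 and 468 CPM with water, 133, 441 and 217 in progressing and 271, 282 and 245 in regressing tumours, with overlap between all groups. Cd3e was at 194, 108 and 227 CPM with water, 167, 232 and 224 in progressing and 328, 322 and 202 in regressing tumours, again overlapping. Cd3g was at 175, 206 and 278 CPM with water, 453, 413 and 249.9 in progressing and 394, 408 and 277 in regressing tumours, and only its water replicate 3 reached into the ATO range. Per kilobase of exon, the ratio of Cd3d to Cd3g was 2.68, 2.46 and 3.03 with water, above 0.528, 1.92 and 1.56 in progressing and 1.24, 1.25 and 1.59 in regressing tumours. These 2 genes lie head to head on chromosome 9, Cd3d on the plus and Cd3g on the minus strand, with start sites 1355 bases apart in GRCm38. The ratios of Cd3d to Cd3e and of Cd247 to Cd3e overlapped between water and progressing libraries, but not between water and regressing ones. Cd3d to Cd3e was 3.02, 5.86 and 4.64 with water, 1.78, 4.27 and 2.17 in progressing and 1.86, 1.97 and 2.72 in regressing tumours. Cd247 to Cd3e was 0.273, 0.444 and 0.217 with water, 0.914, 0.405 and 0.722 in progressing and 0.894, 0.962 and 0.694 in regressing tumours. How often ratios of other gene pairs lie apart was not counted.

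In grafts, Cd3d was the member with the smallest adjusted p. It fell from 759 and 854 CPM with PBS to 402 and 339 with ATO (-1.12 ± 0.21 (SE), edgeR adjusted p = 0.0104), and the call was kept with any 1 of the 4 libraries left out (-1.26 to -1.02). Cd3g was at 899 and 881 CPM with PBS and 631 and 433 with ATO, apart but short of the threshold (-0.74 ± 0.23 (SE), edgeR adjusted p = 0.051). Cd3e overlapped, at 698 and 496 CPM with PBS and 588 and 488 with ATO. Cd247 was at 297 and 232 CPM with PBS and 231 and 199.5 with ATO and was not called. The ratio of Cd3d to Cd3e per kilobase was 2.45 and 3.87 with PBS and 1.54 and 1.56 with ATO. The receptor chain genes show one beta constant region in these grafts: Trbc1 had 2 to 10 counts in each of the 4 libraries, while Trbc2 was at 1893 and 1836 CPM with PBS and 1375 and 966 with ATO. In the thymus both were present in every library, Trbc1 at 17.7, 202 and 748 CPM with water. These 2 genes were singled out after their values were seen.

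The start regions of Cd247, Cd3d and Cd3g are shown because their products build one complex, while Cd247 was called in thymus, Cd3d in grafts and Cd3g in no comparison. The difference between the genes was not tested. They are from RefSeq on GRCm38.p6, 250 bases before to 50 after the start, 5′ to 3′ on the gene's strand. Capitals mark 5 short motifs searched on both strands: ETS (AGGAAG), RUNX (TGTGGT), E-box (CAGCTG), TCF (CTTTGA) and NFAT (GGAAAA). No matches overlapped.
Cd247, chr1:165788431-165788730, plus strand: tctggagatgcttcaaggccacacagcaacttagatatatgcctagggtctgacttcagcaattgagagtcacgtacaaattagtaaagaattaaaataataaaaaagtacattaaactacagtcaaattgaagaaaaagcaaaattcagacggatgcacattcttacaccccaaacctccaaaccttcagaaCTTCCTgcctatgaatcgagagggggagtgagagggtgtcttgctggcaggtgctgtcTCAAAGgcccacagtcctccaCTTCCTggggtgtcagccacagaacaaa
Cd3d, chr9:44981536-44981835, plus strand: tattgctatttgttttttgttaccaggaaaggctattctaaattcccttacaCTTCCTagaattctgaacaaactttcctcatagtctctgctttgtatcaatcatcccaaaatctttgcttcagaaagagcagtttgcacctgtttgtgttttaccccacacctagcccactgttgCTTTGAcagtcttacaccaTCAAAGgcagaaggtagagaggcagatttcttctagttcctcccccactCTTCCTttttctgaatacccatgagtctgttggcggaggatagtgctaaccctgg
Cd3g, chr9:44980382-44980681, minus strand: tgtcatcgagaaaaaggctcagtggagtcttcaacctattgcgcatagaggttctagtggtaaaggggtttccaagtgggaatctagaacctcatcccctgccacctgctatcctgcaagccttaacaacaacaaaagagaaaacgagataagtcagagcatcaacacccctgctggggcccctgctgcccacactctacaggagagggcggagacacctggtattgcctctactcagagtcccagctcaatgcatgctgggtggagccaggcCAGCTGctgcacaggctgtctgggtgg
Cd247 held 2 ETS matches and 1 TCF match, Cd3d 2 of each, and Cd3g 1 E-box match only. Promoters were matched for 22 of the 30 members, 28 promoters in all. An ETS match was in 18 of these 28, against 35.4% of all 32851 mouse promoters in the same table. Some members have more than 1 promoter here, and by gene 14 of the 22 members held an ETS match. The other motifs were in 4 (RUNX, 16.8% of all promoters), 2 (E-box, 16.3%), 5 (TCF, 16.0%) and 3 (NFAT, 23.4%) of the 28. A match describes letters in this window and no binding was measured.

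Lck (chr4:129548344-129573641, GRCm38), the kinase that starts the cascade, was called higher in regressing tumours than with water. It was at 301, 516 and 325 CPM with water, 941, 971 and 751 in progressing and 1659, 1774 and 1003 in regressing tumours, so the 3 groups did not overlap. Against water the log2 fold change was 1.96 ± 0.37 (SE), edgeR adjusted p = 0.0165, in regressing and 1.22 ± 0.36 (SE), edgeR adjusted p = 0.0512, in progressing tumours. The regressing call was lost without regressing replicate 1 or 2 (1.82 to 2.33). The progressing value stood just outside the threshold and passed it with RLE size factors, without the low-count filter and by DESeq2.

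Fyn encodes the other SRC-family kinase of T cells, and Zap70 the kinase that docks on the CD3 chains. Neither passed in any comparison with edgeR or DESeq2, nor at an unadjusted p under 0.05. Fyn was at 191, 189 and 133 CPM with water, 132, 140.4 and 149 in progressing and 131, 116 and 102 in regressing tumours. Zap70 was at 175, 188 and 193 CPM with water, above all ATO libraries (122, 112 and 168 in progressing, 153, 152 and 113 in regressing). The ratio of Lck to Fyn per kilobase was 2.34, 4.06 and 3.64 with water, 10.6, 10.3 and 7.50 in progressing and 18.8, 22.8 and 14.7 in regressing tumours, with no overlap between groups.

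Grafts gave Lck levels of 2318 and 1904 CPM with PBS and 1488 and 999 with ATO (-0.76 ± 0.25 (SE), edgeR adjusted p = 0.0586). Zap70 was at 308 and 228 CPM with PBS and 222 and 161 with ATO, and Fyn at 139.8 and 154 with PBS and 167 and 145 with ATO. The ratio of Lck to Fyn was 24.7 and 18.5 with PBS and 13.3 and 10.2 with ATO, so it lay lower with ATO in grafts and higher in ATO-treated thymus tumours. This difference between the tables was not tested.

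**Figure D2:**
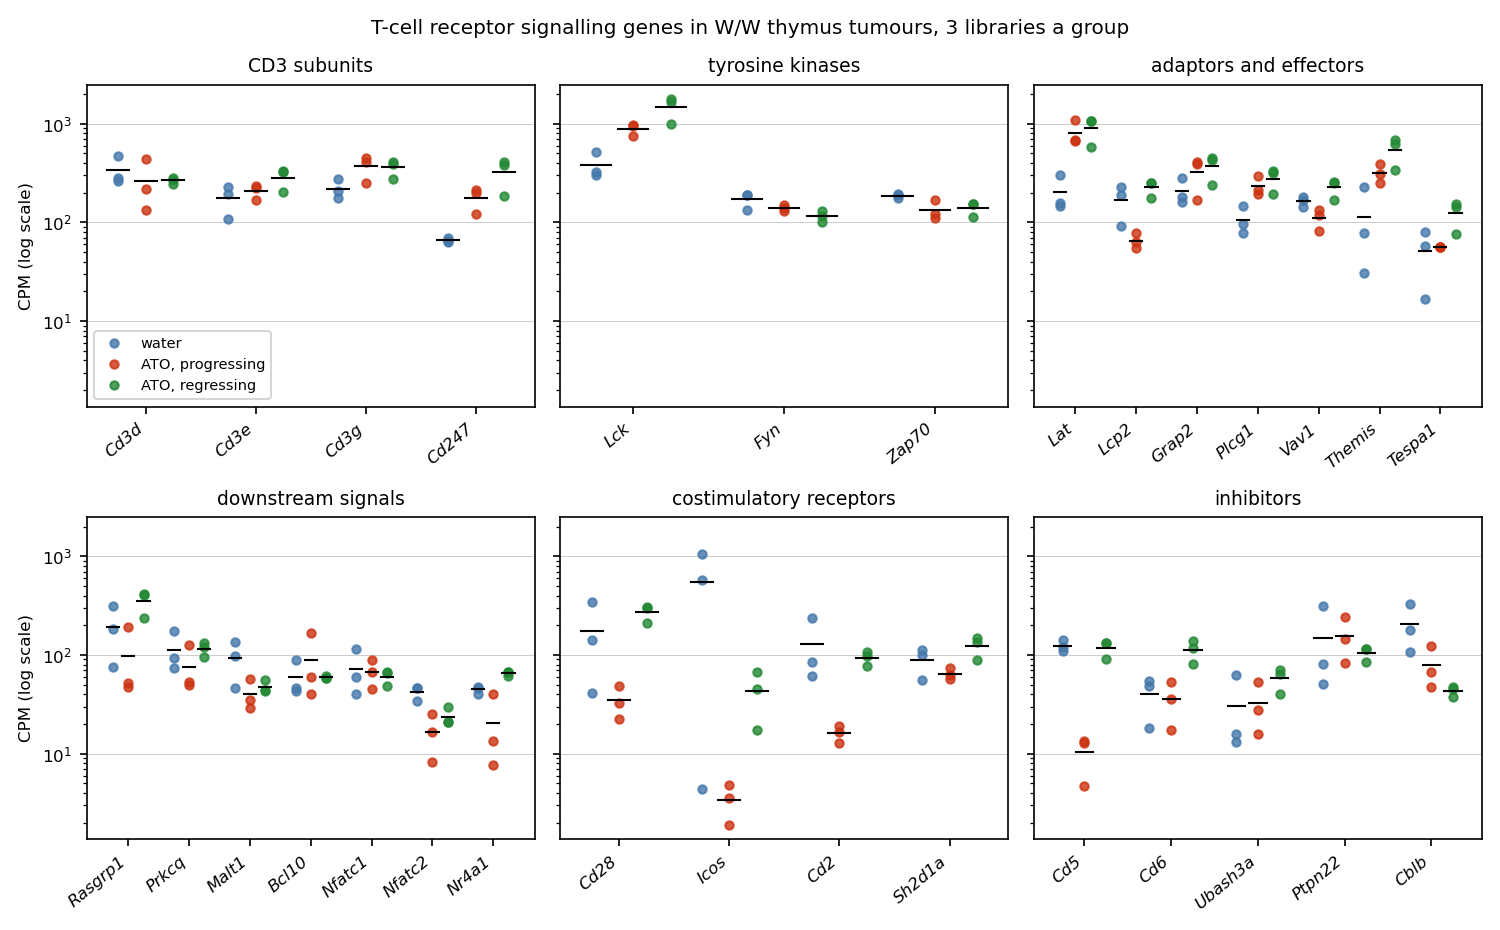
CPM (log axis) of the 30 genes in 9 W/W thymus libraries, by role; points are libraries and bars are group means. Cd5 and Cd2 in progressing tumours lie below every water and regressing library, and Cd247, Lck and Lat in both ATO groups lie above every water library.

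Among adaptors, the scaffold LAT and its partner SLP-76, encoded by Lcp2, were called in opposite directions in progressing tumours. Lat was at 148, 303 and 157 CPM with water, 668, 1091 and 680.4 in progressing and 1076, 1076 and 575 in regressing tumours. Both ATO groups lay above water, by 2.17 ± 0.42 (SE), edgeR adjusted p = 0.0184, in regressing and by 2.01 ± 0.42 (SE), edgeR adjusted p = 0.0148, in progressing tumours on the log2 scale. The calls were lost without regressing replicate 1 or 2 (1.99 to 2.66) and without water replicate 1 or 3 (1.81 to 2.42), respectively. Lcp2 was at 227, 92.1 and 191 CPM with water, 62.7, 54.8 and 78.8 in progressing and 252, 251 and 175 in regressing tumours, so progressing libraries were the lowest. Lcp2 was lower in progressing tumours than with water (-1.38 ± 0.36 (SE), edgeR adjusted p = 0.0347) and higher in regressing than in progressing tumours (1.79 ± 0.37 (SE), edgeR adjusted p = 0.0191). The first of these calls was kept only without water replicate 2 (-1.66 to -1.12), and the second was lost without progressing replicate 3 or regressing replicate 1 or 2 (1.71 to 2.01). Myeloid cells also express Lcp2, and the summed level of 8 macrophage markers was 1742 to 2502 CPM with water, 310 to 1449 in progressing and 536 to 970 in regressing tumours; its part in the Lcp2 difference was not tested.

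The ratio of Lat to Lcp2 per kilobase was 1.05, 5.30 and 1.32 with water, 17.2, 32.1 and 13.9 in progressing and 6.89, 6.92 and 5.29 in regressing tumours. Progressing tumours thus had the 3 highest ratios. The start regions of these 2 adaptors with opposite calls are shown with the same motifs in capitals.
Lat, chr7:126369519-126369818, minus strand: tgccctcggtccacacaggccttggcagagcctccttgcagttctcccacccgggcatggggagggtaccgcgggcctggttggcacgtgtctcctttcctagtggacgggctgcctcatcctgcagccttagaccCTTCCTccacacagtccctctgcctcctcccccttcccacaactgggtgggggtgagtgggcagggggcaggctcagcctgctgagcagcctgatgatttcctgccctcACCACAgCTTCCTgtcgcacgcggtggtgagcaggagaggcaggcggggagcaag
Lcp2, chr11:34046678-34046977, plus strand: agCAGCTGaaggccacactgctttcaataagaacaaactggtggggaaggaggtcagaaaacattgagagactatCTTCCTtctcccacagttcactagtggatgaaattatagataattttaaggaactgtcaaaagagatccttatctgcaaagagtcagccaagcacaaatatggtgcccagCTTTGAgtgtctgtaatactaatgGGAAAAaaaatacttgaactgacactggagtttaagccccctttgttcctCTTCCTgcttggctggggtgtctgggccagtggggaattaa
Lat held 2 ETS matches and 1 RUNX match. Lcp2 held 2 ETS matches and 1 each of the E-box, TCF and NFAT motifs.

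Plcg1 (chr2:160731300-160775760), the phospholipase that makes inositol trisphosphate and diacylglycerol, was at 146, 77.5 and 95.9 CPM with water, 211, 292 and 196 in progressing and 314, 328 and 192 in regressing tumours. Both ATO groups lay above water, and the regressing group passed the test (1.38 ± 0.35 (SE), edgeR adjusted p = 0.0398). Themis (chr10:28668360-28883818), an adaptor needed for thymic selection, was at 228, 77.4 and 30.9 CPM with water, 392, 249 and 309 in progressing and 616, 683 and 342 in regressing tumours, so the water libraries differed widely among themselves. Its regressing difference from water passed narrowly (2.29 ± 0.62 (SE), edgeR adjusted p = 0.0496). Both calls were lost without water replicate 2 or 3 or without regressing replicate 1 or 2, and that of Themis also without regressing replicate 3 (1.26 to 1.69 for Plcg1 and 1.84 to 3.34 for Themis, the highest without water replicate 1).

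Vav1 (chr17:57279100-57328031), a guanine nucleotide exchange factor, was at 170.0, 179.7 and 145 CPM with water, 119, 132 and 82.7 in progressing and 250.1, 259 and 168 in regressing tumours. Regressing lay above progressing libraries (1.02 ± 0.30 (SE), edgeR adjusted p = 0.0482), a call lost with any 1 of the 6 libraries left out (0.84 to 1.27). Grap2, the GADS adaptor that links LAT to SLP-76, ranged from 160.2 to 447 CPM over the 9 thymus libraries and passed in no comparison. Tespa1, which acts in thymocyte selection, ranged from 16.8 to 152 CPM, with regressing above progressing libraries but short of the threshold (1.14 ± 0.49 (SE), edgeR adjusted p = 0.14).

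In grafts Plcg1 was the adaptor or effector gene that passed. It was at 106 and 99.3 CPM with PBS and 207 and 141 with ATO (0.76 ± 0.22 (SE), edgeR adjusted p = 0.0451), lost without PBS replicate 1 or 2 or ATO replicate 1 (0.44 to 0.99). Lat was at 1551 and 1314 CPM with PBS and 1219 and 669 with ATO, apart but not past the threshold (-0.60 ± 0.27 (SE), edgeR adjusted p = 0.157). Lcp2 overlapped, at 87.7 and 91.7 CPM with PBS and 86.1 and 101 with ATO. Grap2 was at 231 and 257 CPM with PBS and 380.2 and 339 with ATO, apart but not past the threshold (0.56 ± 0.20 (SE), edgeR adjusted p = 0.0767).

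The 7 downstream members passed in no thymus comparison with edgeR, although Malt1, Nfatc2, Nr4a1 and Rasgrp1 had an unadjusted p under 0.05 in at least 1, and DESeq2 called Nfatc2, Nr4a1 and Rasgrp1 in 1 each. Nr4a1, an orphan nuclear receptor induced within minutes by receptor engagement, was at 46.2, 40.4 and 47.7 CPM with water, 7.71, 40.2 and 13.4 in progressing and 67.7, 67.8 and 60.7 in regressing tumours. Every regressing library was the highest and every progressing library the lowest, although progressing replicate 2 nearly reached water replicate 2. Its difference between the outcomes stood just outside the threshold (1.68 ± 0.51 (SE), edgeR adjusted p = 0.0556) and passed with RLE size factors, without the low-count filter and by DESeq2. Rasgrp1, the diacylglycerol-activated exchange factor for RAS, was at 185, 75.8 and 314 CPM with water, 47.9, 191 and 51.4 in progressing and 401, 417 and 237 in regressing tumours (1.86 ± 0.63 (SE), edgeR adjusted p = 0.074, between outcomes).

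Nfatc2 (chr2:168476410-168601657), a calcium-dependent transcription factor, was at 46.8, 33.8 and 46.3 CPM with water, 8.14, 16.4 and 25.3 in progressing and 29.4, 20.9 and 21.0 in regressing tumours. Both ATO groups lay below water without passing (-1.35 ± 0.43 (SE), edgeR adjusted p = 0.0654, in progressing and -0.83 ± 0.42 (SE), edgeR adjusted p = 0.225, in regressing tumours). In grafts it went the other way, from 12.1 and 11.2 CPM with PBS to 18.5 and 32.3 with ATO (1.13 ± 0.33 (SE), edgeR adjusted p = 0.0446). That call was lost without PBS replicate 1 or 2 or ATO replicate 2 (0.65 to 1.46), and ATO replicate 2 was the higher library. Prkcq (protein kinase C theta), Bcl10, Malt1 and Nfatc1 passed in no comparison with edgeR or DESeq2. Their thymus levels ran from 29.0 CPM, for Malt1 in progressing replicate 1, to 174, for Prkcq in water replicate 1. In grafts they lay between 16.5 CPM (Malt1) and 76.3 CPM (Bcl10).

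Of the 4 costimulatory members, Cd2 and Cd28 were called higher in regressing than in progressing tumours, and Icos and Sh2d1a were not. Every regressing library lay above every progressing library for all 4. For the 30 members, 12 were apart in that direction and 1 in the other, where the groups were apart for 42% of all tested genes (21.4% higher, 20.6% lower). Cd2 (chr3:101275899-101287939), an adhesion and costimulatory receptor of T cells, was at 85.4, 239.6 and 61.6 CPM with water, 19.2, 16.4 and 12.9 in progressing and 108, 96.8 and 77.2 in regressing tumours. It was lower in progressing tumours than with water (-2.99 ± 0.49 (SE), edgeR adjusted p = 0.00613), with any 1 of the 6 libraries left out as well (-3.34 to -2.17, the smallest without water replicate 2). It was higher in regressing than in progressing tumours (2.54 ± 0.48 (SE), edgeR adjusted p = 0.0159), a call lost without progressing replicate 3 or regressing replicate 1 or 2 (2.39 to 2.73). Water replicate 2, with the highest Cd2 level, is also the library with the highest B-cell and NK marker sums; NK cells express Cd2, and their part was not tested.

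Cd28 (chr1:60716800-60773359), the main costimulatory receptor of naive T cells, was at 341, 41.4 and 143 CPM with water, 48.4, 22.6 and 32.9 in progressing and 307, 301 and 209 in regressing tumours. Water replicate 2 overlapped the progressing libraries. Cd28 was lower in progressing tumours than with water (-2.34 ± 0.63 (SE), edgeR adjusted p = 0.0367) and higher in regressing than in progressing tumours (2.97 ± 0.64 (SE), edgeR adjusted p = 0.0207). The first call was kept only without water replicate 2 (-2.79 to -1.42, the smallest without water replicate 1), and the second was lost without progressing replicate 2 or 3 or regressing replicate 1 or 2 (2.77 to 3.30).

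Icos (chr1:60977927-61000320), its relative induced on activated and follicular helper T cells, ranged from 1.91 to 1056 CPM over the 9 thymus libraries. It was at 1056, 4.35 and 574 CPM with water, 3.51, 4.82 and 1.91 in progressing and 44.9, 17.4 and 66.7 in regressing tumours. Water replicate 2 thus read like a progressing library. The fitted fall in progressing tumours was -7.32 ± 1.49 (SE), edgeR adjusted p = 0.0134, although the groups overlapped, and it was lost without progressing replicate 3 (-7.90 to -6.40, the smallest without water replicate 1). Sh2d1a (chrX:42502453-42529330), which encodes the adaptor SAP of the SLAM receptors, was at 111, 55.9 and 99.0 CPM with water, 63.1, 73.6 and 56.8 in progressing and 137, 148 and 88.2 in regressing tumours and passed in no thymus comparison.

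Graft levels of Sh2d1a were 122 and 121 CPM with PBS and 78.3 and 63.8 with ATO (-0.77 ± 0.20 (SE), edgeR adjusted p = 0.0306), a fall lost without PBS replicate 1 or 2 or ATO replicate 2 (-0.94 to -0.65). Cd2 was at 50.2 and 56.6 CPM with PBS and 46.2 and 34.1 with ATO, and Cd28 at 15.1 and 22.6 with PBS and 21.4 and 25.6 with ATO. Icos was at 3.86 and 5.5 CPM with PBS and 4.06 and 3.02 with ATO, near the levels of the progressing thymus tumours, though the tables were scaled separately. The summed NK and cytotoxic markers were 247 to 469 CPM with PBS and 108 to 188 with ATO. Nearly all of each sum was Gzma, at 240 and 463 CPM with PBS and 184 and 105 with ATO. Ncr1 was at 0 in all 4 graft libraries, and Klrb1c, Klrd1 and Klrk1 had 9 counts or fewer in each. The sum thus follows Gzma more than NK receptor genes. NK cells also express Sh2d1a, and their part was not tested.

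Of the inhibitors, Cd5, a surface receptor that dampens the signal, gave the smallest adjusted p of the members in both comparisons with progressing tumours. It was at 143, 109 and 120.1 CPM with water, 12.8, 4.73 and 13.5 in progressing and 133, 131 and 91.0 in regressing tumours. Water and regressing libraries overlapped, and all 3 progressing libraries lay far below both. The fall against water was -3.58 ± 0.42 (SE), edgeR adjusted p = 0.00157, and the rise of regressing over progressing tumours was 3.51 ± 0.42 (SE), edgeR adjusted p = 0.00611. Both calls were kept with any 1 of the 6 compared libraries left out (-3.81 to -3.17 and 3.20 to 3.75). The T-lineage sum overlapped between progressing and water libraries, and 2 of its 10 genes were called higher and 1 lower there. Some B cells express Cd5 too, and 7 of 8 B-cell markers were lower in progressing tumours than with water (summed level 7.15 to 53.0 CPM against 281 to 3547, and 137 to 220 in regressing tumours); their part was not tested.

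Cd6, the neighbour and paralogue of Cd5 on chromosome 19, passed in no comparison with edgeR. It was at 54.2, 18.3 and 48.3 CPM with water, 17.3, 35.4 and 53.6 in progressing and 118, 139 and 80.4 in regressing tumours (1.67 ± 0.50 (SE), edgeR adjusted p = 0.0506, between outcomes), just outside a threshold that it passed with RLE size factors, without the low-count filter and by DESeq2. The ratio of Cd5 to Cd6 per kilobase was 4.25, 9.65 and 4.02 with water, 1.20, 0.216 and 0.408 in progressing and 1.82, 1.53 and 1.83 in regressing tumours, with no overlap between the groups. In grafts Cd5 was near its level in progressing thymus tumours (on a separate scaling), at 10.7 and 9.47 CPM with PBS and 13.9 and 4.87 with ATO, and Cd6 was at 58.3 and 39.2 with PBS and 37.8 and 17.0 with ATO. The start region of Cd5 is shown as that of the member with the clearest difference between outcomes.
Cd5, chr19:10738925-10739224, minus strand: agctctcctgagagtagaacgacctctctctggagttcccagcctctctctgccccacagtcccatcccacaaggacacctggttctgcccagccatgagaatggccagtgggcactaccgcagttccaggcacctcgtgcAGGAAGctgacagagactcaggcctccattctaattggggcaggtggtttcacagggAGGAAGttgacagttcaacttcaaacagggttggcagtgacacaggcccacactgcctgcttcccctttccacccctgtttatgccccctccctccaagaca
It held 2 ETS matches and none of the other 4 motifs.

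Cblb (chr16:52031225-52208048) encodes a ubiquitin ligase that limits activation in the absence of costimulation. It was at 179, 108 and 329 CPM with water, 67.3, 124 and 47.2 in progressing and 37.9, 44.8 and 47.9 in regressing tumours. Regressing libraries lay below water (-2.24 ± 0.47 (SE), edgeR adjusted p = 0.0226), but the call was lost without any 1 of the 3 regressing libraries (-2.45 to -1.72). In grafts the levels were 18.2 and 28.7 CPM with PBS and 32.8 and 34.7 with ATO. Ubash3a and Ptpn22, both phosphatase-family inhibitors of proximal signalling, passed in no comparison. Ubash3a ranged from 13.2 to 70.6 CPM and Ptpn22 from 51.3 to 312 CPM over the thymus libraries, both ends of Ptpn22 being water libraries.

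**Figure D3:**
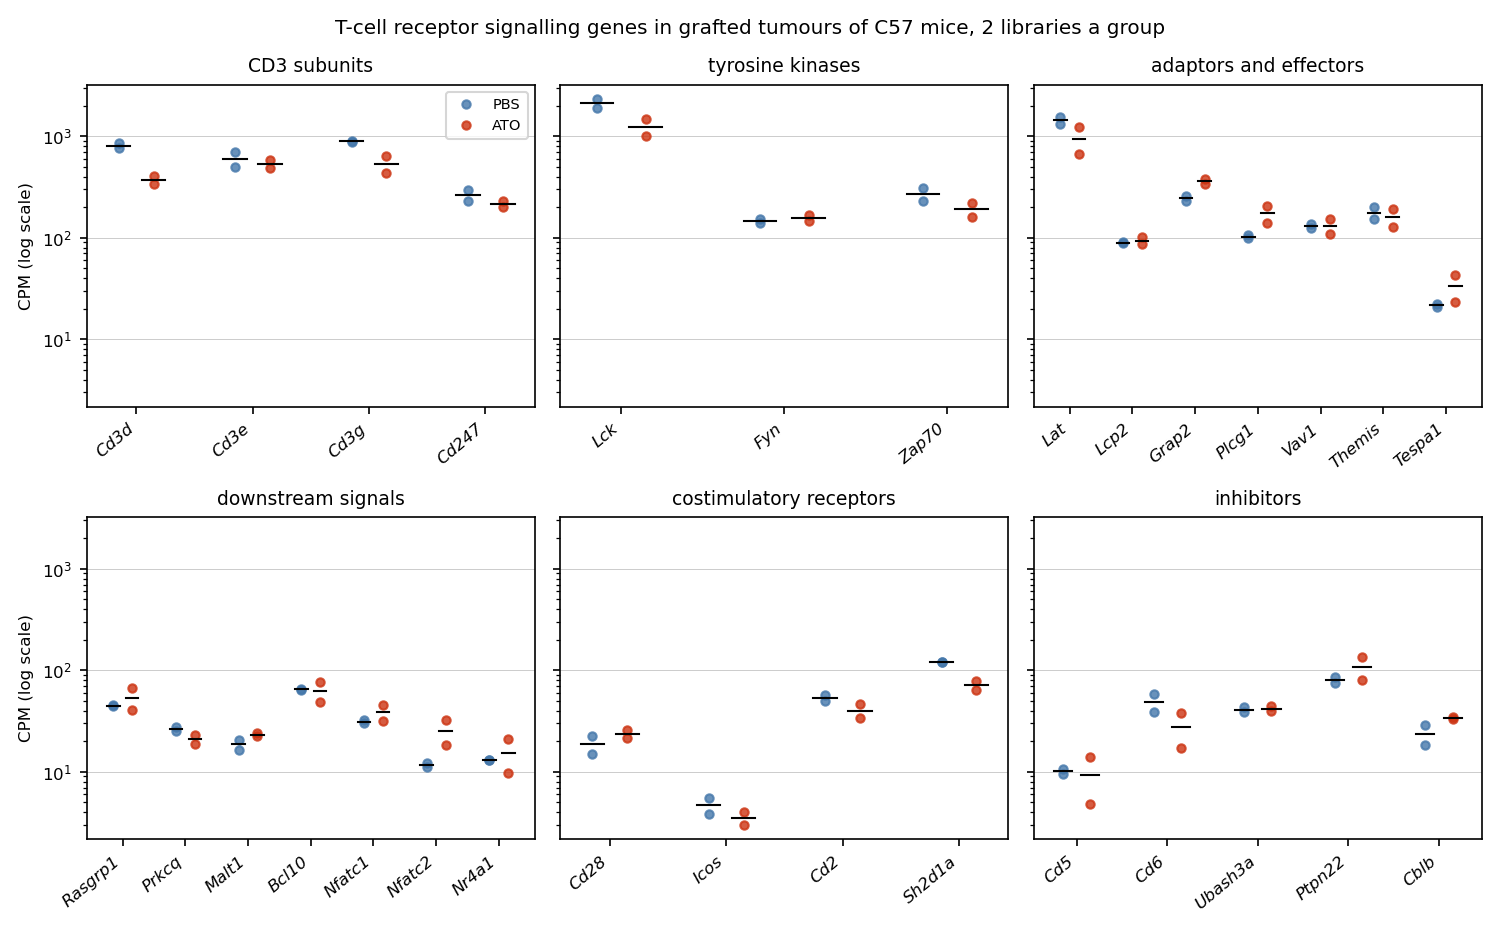
CPM (log axis) of the 30 genes in 4 graft libraries, by role; points are libraries and bars are group means of 2. Cd3d, Cd3g and Lck lie lower with ATO than with PBS, Plcg1 and Nfatc2 lie higher, and Icos and Cd5 are the lowest members.

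Between genes, levels are compared per kilobase of exon (mean CPM per kb ± SD over a group's libraries). With water the highest were Cd3d at 186 ± 62.8, Icos at 159 ± 153 and Lck at 129.8 ± 40.2, whose ranges overlapped. In progressing tumours Lck (303 ± 40.7) and Lat (294 ± 87.0) led, within each other's spread, followed by Cd3d (145 ± 87.9). In regressing tumours Lck (505 ± 142) came before Lat (329 ± 105) and Cd3d (147 ± 10.4). PBS grafts had the same first 3, Lck at 650.0 to 791 in its 2 libraries, Lat at 518 ± 60.5 and Cd3d at 444 ± 37.0. The lowest members in progressing tumours were Icos (0.996 ± 0.424), Nfatc2 (1.57 ± 0.811) and Cd5 (2.10 ± 0.988).

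Of 70 further genes of the pathway, 10 were higher and 5 lower in regressing tumours than with water, and 3 higher and 20 lower in progressing tumours. Between outcomes, 19 were higher in regressing tumours and 1 lower, at the same threshold and beside the same shares of all genes. The list with the most calls held 17 genes that receptor signals induce or that restrain them. Of these, 10 were called higher in regressing than in progressing tumours and the other 7 were not called (median log2 fold change 2.05). Against water, 8 were called lower in progressing tumours and the other 9 were not called (median -2.26), and regressing tumours had 3 higher and 4 lower. Beside these, the medians over all tested genes were -0.07, -0.04 and -0.11. Cd69, an early activation marker, was at 48.7, 19.9 and 53.8 CPM with water, 5.12, 0.676 and 0.0735 in progressing and 72.3, 64.4 and 41.6 in regressing tumours (4.89 ± 1.03 (SE), edgeR adjusted p = 0.0199, between outcomes). Egr3, a transcription factor induced through NFAT, was at 84.8, 13.2 and 81.6 CPM with water, 2.10, 0.761 and 0.441 in progressing and 8.72, 8.05 and 29.6 in regressing tumours (-5.74 ± 0.95 (SE), edgeR adjusted p = 0.00621, progressing against water). Pdcd1, which encodes the inhibitory receptor PD-1, was at 22.4, 89.3 and 33.0 CPM with water, 3.45, 1.10 and 3.31 in progressing and 11.1, 7.41 and 16.1 in regressing tumours (-4.19 ± 0.68 (SE), edgeR adjusted p = 0.00583, progressing against water). Cd40lg, the helper ligand, had 2 counts or fewer in each progressing library and 49 to 106 counts in each regressing one. Its log2(CPM + 1) minus the gene mean over the 9 libraries was 4.50, -1.80 and 2.28 with water and 0.54, -0.02 and 0.82 in regressing tumours. Water replicates 1 and 3 thus lay above every regressing library, and water replicate 2 below. The progressing against water calls of Egr3 and Pdcd1 were kept with any 1 of the 6 libraries left out; that of Cd69 between outcomes was lost without progressing replicate 2 or regressing replicate 1 or 2 (4.33 to 7.32, the largest without progressing replicate 1).

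**Figure D4:**
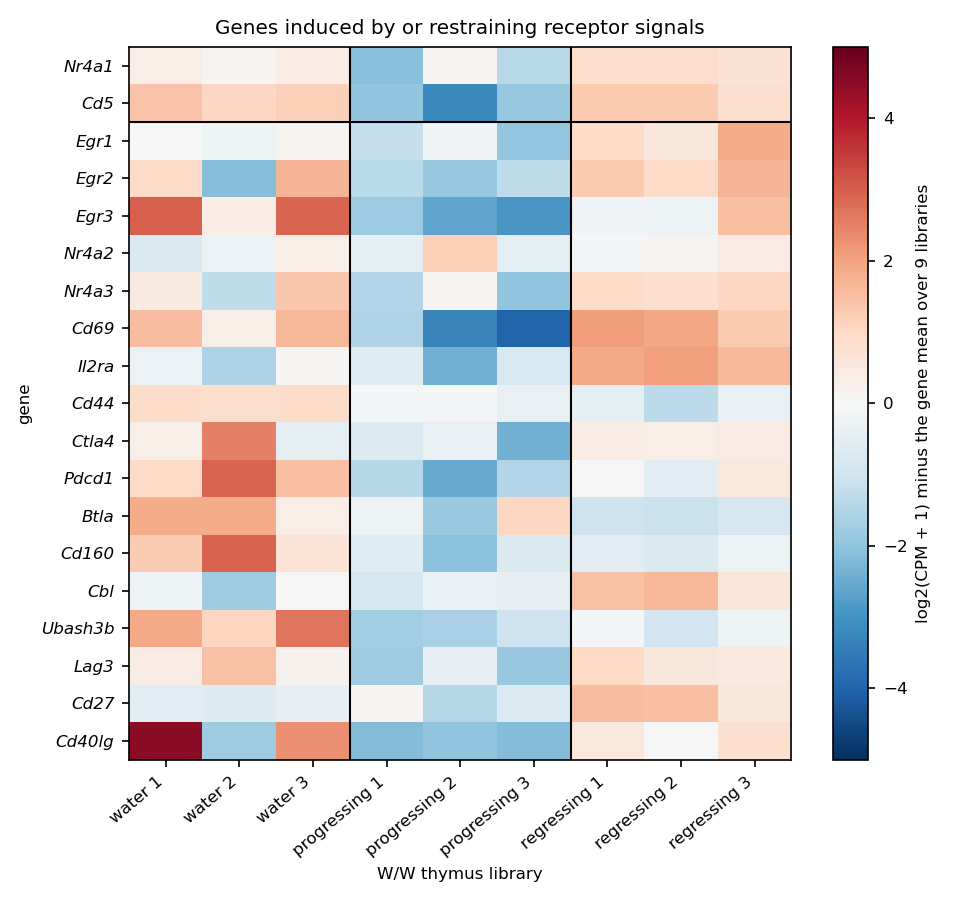
Deviation of each gene, as log2(CPM + 1) minus its mean over the 9 W/W thymus libraries, for the members Nr4a1 and Cd5 (above the line) and 17 induced or inhibitory genes. Of the 17 genes, 10 were called higher in regressing than in progressing tumours, beside 6.45% of all tested genes. Against water, 8 were called lower in progressing tumours, beside 7.13% of all tested genes. The list was chosen with earlier results of these data known.

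CD4 and CD8 are the coreceptors that bring LCK to the receptor. Cd4 was at 87.2, 47.3 and 42.8 CPM with water, 469.6, 255 and 161 in progressing and 808, 888 and 449.8 in regressing tumours. It was higher than with water in progressing (2.32 ± 0.48 (SE), edgeR adjusted p = 0.0141) and in regressing tumours (3.60 ± 0.51 (SE), edgeR adjusted p = 0.00685), and both calls were kept with any 1 library left out. Cd8a was at 37.7, 243 and 209.8 CPM with water, 542, 705 and 700.3 in progressing and 1868, 1899 and 989.7 in regressing tumours (3.28 ± 0.62 (SE), edgeR adjusted p = 0.0168, regressing against water), a call lost without regressing replicate 1 or 2 (2.81 to 3.79). In grafts Cd4 rose from 98.9 and 55.6 CPM with PBS to 174 and 147 with ATO (1.06 ± 0.26 (SE), edgeR adjusted p = 0.0249), lost without PBS replicate 2 (0.67 to 1.52). Trdc, the constant region of the delta chain, was at 124, 148 and 136 CPM in regressing tumours and at 51.7, 0.254 and 0 in progressing ones, with 13 counts or fewer in each water library. Its regressing against water call (edgeR adjusted p = 0.0389) was lost with any 1 library left out.

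Adaptor, lipid and calcium genes completed the lists. Among 14 adaptors, 4 were higher in regressing than in progressing tumours, beside 6.45% of all tested genes. In progressing tumours 4 were lower than with water, beside 7.13%. Regressing tumours had 1 higher and 0 lower than with water, beside 3.13% and 4.57%. Cd226, an activating receptor, was at 148, 12.5 and 213 CPM with water, 0.432, 0.423 and 2.87 in progressing and 37.7, 15 and 15.5 in regressing tumours (-6.64 ± 1.15 (SE), edgeR adjusted p = 0.00745, progressing against water), and that call was kept with any 1 library left out (-8.15 to -6.02, the ends without progressing replicate 3 and water replicate 3). Trat1, which stabilises the receptor at the surface, was at 22.5, 39.6 and 7.96 CPM with water, 12.5, 36.7 and 12.2 in progressing and 254, 270.2 and 136 in regressing tumours (3.43 ± 0.64 (SE), edgeR adjusted p = 0.0155, between outcomes; 3.16 to 4.19, the largest without progressing replicate 2), a call lost without progressing replicate 3 or regressing replicate 1 or 2. Lax1 and Sh3bp2 changed by -2.07 and -1.82 in progressing tumours against water, and of these the call of Lax1 was kept with any 1 library left out and that of Sh3bp2 was not. Dgka, a kinase that removes diacylglycerol, was at 639, 87.1 and 493 CPM with water, 61.4, 48.7 and 26.3 in progressing and 609.5, 589 and 279 in regressing tumours (3.44 ± 0.68 (SE), edgeR adjusted p = 0.0174, between outcomes), lost without the same 3 libraries as Trat1 (3.16 to 3.79).

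Its relative Dgkz was at 230.3, 224 and 183 CPM with water, 216, 248 and 177 in progressing and 632, 604 and 313 in regressing tumours (1.28 ± 0.33 (SE), edgeR adjusted p = 0.0441, regressing against water), a call kept only without regressing replicate 3 (1.12 to 1.64). Traf6 and Map3k7, which pass the signal to NF-kB, were the pathway genes called higher in progressing tumours beside Cd4, at 1.81 and 1.31, and both calls were kept with any 1 library left out, though that of Map3k7 was lost with only the compared groups. Csk, the kinase that switches Lck off, was at 373, 585 and 302 CPM with water, 128, 133 and 98.2 in progressing and 197, 205 and 158 in regressing tumours (-1.81 ± 0.32 (SE), edgeR adjusted p = 0.00835, progressing against water). Ptpn6 and Dusp2, both phosphatases, and Ppp3ca (calcineurin) and Orai1 (a calcium channel) were called lower in progressing tumours than with water, at -2.26, -1.59, -2.08 and -2.01 on the log2 scale, each lost without at least 1 library and those of Dusp2 and Orai1 also with only the compared groups (ranges -2.62 to -1.67, -2.13 to -1.30, -2.41 to -1.39 and -2.39 to -1.59). Those of Ptpn6 and Ppp3ca were smallest without water replicate 2. Nfatc3 (1.62) and Pag1 (1.63), an anchor of Csk, were called higher in regressing tumours than with water, and both were lost without regressing replicate 1 or 2 (ranges 1.46 to 1.92 and 1.46 to 2.05). In grafts 4 of 66 tested pathway genes were higher with ATO and 3 lower, beside 7.37% higher and 6.57% lower of all tested genes.

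Other cell types also differed between these groups, and their part in the pathway differences was not tested. Thymic epithelial markers summed to 157 to 917 CPM with water, 41.6 to 102 in progressing and 1483 to 1692 in regressing tumours, and 6 of 8 were called higher between outcomes. Adipocyte markers summed to 44.3 to 153 CPM with water, 124 to 1361 in progressing and 163 to 5006 in regressing tumours, and 3 of 8 were called higher in regressing tumours than with water. Regressing replicate 3 had the highest of these sums and 8.48% mitochondrial counts, against 2.08% and 2.96% in the other regressing libraries, and it had the lowest regressing level of 26 of the 30 members. Progressing replicate 2 had an adipocyte sum of 1361 CPM, against 124 and 246, and 8.83% mitochondrial counts, against 4.70% and 4.86%. It had the lowest progressing level of 8 of the 30 members, and the highest of Nr4a1, Rasgrp1, Bcl10 and Prkcq among others. Fibroblast markers summed to 398 to 1102 CPM with water, 880 to 1431 in progressing and 159 to 562 in regressing tumours, and 3 of 8 were called lower in regressing tumours in each comparison. In grafts, 5 of 8 fibroblast markers were higher with ATO (710 to 1835 CPM against 265 to 524 with PBS) and 4 of 8 macrophage markers lower (347 to 402 against 683 to 906). Exons of Cd247, Sh2d1a, Plcg1, Lcp2, Cd3e and Themis overlap exons of genes on the opposite strand, for Cd247 over 3007 bases of Pou2f1 and for Sh2d1a over 1465 bases of Tenm1. Whether counting used strand is not given in the sources used here, so reads of these pairs cannot be told apart.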

How the data were processed

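RNA was sequenced from 9 thymus samples of W/W mice and 4 grafted tumours; 2 U937 libraries of the series were not used. Per the labels' protocols, TRIzol was used for extraction and a SMARTer mRNA-Seq kit for the libraries. The labels' protocol also holds a cell culture passage that does not describe these tissues. The submitters' processing notes list FastQC 0.10.1, cutadapt 1.9.1 and HISAT2 2.0.1; how reads were counted, whether by strand and on which annotation is not given in the sources used here. The authors deposited raw counts per gene, which were tested here, and FPKM values, which were used only to check the totals. The totals implied by the deposited FPKM exceeded the summed counts by 0.106% to 2.33% in the thymus table, the most in water replicate 2, and matched them in the graft table. Of the genes measured in thymus, 98.9% have the GRCm38 coordinates of GENCODE vM21. Of those measured in grafts, 2.60% do, so no coordinates were taken from that table.

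Counts were tested in R 4.3.3 with edgeR 4.0.16 (filterByExpr, TMM, quasi-likelihood test, Benjamini-Hochberg adjustment over all tested genes, threshold 0.05). The 9 thymus libraries were fitted as 3 groups and the 4 graft libraries alone. A standard error is the absolute log2 fold change divided by the square root of the F statistic. DESeq2 1.42.0, RLE size factors, no low-count filter, a replicate block, only the compared groups and leaving out each library were tried as alternatives. The replicate numbers were not read as pairing the samples. The code was tested on simulated data.

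The members and the gene lists were chosen with earlier results of these data known. Values in every sample are given for members past the threshold in any comparison and for Cd3d, Cd3e, Cd3g, Cd247, Lck, Zap70, Lat, Lcp2 and Nr4a1. From each pathway list, up to 4 genes past the threshold with the largest absolute fitted log2 fold change are named. The labels name no molecular identifiers, so amplified copies of a molecule may be counted more than once.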

Additional observations from a re-analysis of the deposited data

Results flagged for a closer look

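The difference between regressing and progressing tumours was itself past the threshold for 5 members in edgeR's test, with log2 fold changes of 1.79 for Lcp2, 1.02 for Vav1, 2.97 for Cd28, 2.54 for Cd2 and 3.51 for Cd5. Both outcomes received ATO, and in 3 of 3 regressing against 3 of 3 progressing libraries each of the 5 genes was higher. The 5 were picked by the test on these same libraries, so this separation adds no support. Over all tested genes, 12.6% were called and the groups were apart for 42%. Only 1 member call was left without regressing replicate 1, regressing replicate 2 or progressing replicate 3.

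For 7 members every ATO-treated thymus library lay on one side of the mean of the water libraries and every ATO-treated graft on the other side of the PBS mean. For Cd3g, Malt1 and Cblb the ATO-treated and water libraries of the thymus nevertheless overlapped. How many of all genes meet this rule was not counted, so the 7 cannot be read as particular to the members. Of them only Nfatc2 was called in grafts, where the groups were apart for 61.7% of all tested genes. The log2 ratios of mean CPM, ATO over control, were 0.73 in thymus and -0.74 in grafts for Cd3g, 1.94 and -0.30 for Cd247, 1.64 and -0.76 for Lck, and 2.09 and -0.60 for Lat. For Malt1 they were -1.09 and 0.32, for Nfatc2 -1.07 and 1.12, and for Cblb -1.74 and 0.52. The difference between the systems was not tested, because the 2 tables were scaled separately.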

How the results depend on the processing

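The called members were computed again under each alternative, and no called value changed sign. Counts of calls within 1.5-fold of the main fit are not all listed here. Over all genes, the calls for regressing against water (1396) became 2689 without the low-count filter and 3157 with DESeq2, and 60 to 1190 with 1 library left out. Those for progressing against water (2157) became 3594 without the filter, 3841 with DESeq2, 1405 with a replicate block and 882 with only the compared groups, and 907 to 2557 with 1 library left out. Between the outcomes 2289 calls became 3621 without the filter and 4069 with DESeq2, and 177 to 2000 with 1 library left out. In grafts 2157 calls became 3274 without the filter and 1350 with the block, and 685 to 2420 with 1 library left out. Member calls for regressing against water (6) were 9 without the filter, 8 with DESeq2 and 0 to 6 with 1 library left out. They were 0 without regressing replicate 1 or 2, the libraries that resembled each other most. Without regressing replicate 3 they were 4, and without water replicates 1, 2 and 3 in turn they were 6, 5 and 4. For progressing against water (7) they were 12 without the filter, 10 with DESeq2 and 3 to 8 with 1 library left out. Between the outcomes (5) they were 10 without the filter, 9 with DESeq2, 9 with only the compared groups and 1 to 5 with 1 library left out. In grafts (4) they were 8 without the filter, 2 with the block and 1 to 8 with 1 library left out. The cause of these shifts was not tested. Fits that leave a library out also have fewer samples.

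Thymus samples with the same replicate number did not deviate together (r from -0.124 to 0.136 over 9 pairs), so the numbers were not read as pairs. In grafts r was -0.13 for pairs of the same number and 0.13 for the others. With 2 libraries a group, deviations from the group mean mirror each other. The graft values therefore cannot show whether the numbers pair samples. With the replicate block, member calls were 5 for regressing against water, 7 for progressing against water (6 of them shared) and 5 between the outcomes. A crossed replicate block in grafts, chosen after seeing the data, gave 3298 calls over all genes and 9 members.

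Besides left-out libraries, only 2 alternatives ended member calls. With only the compared groups these were Themis in regressing against water and Cd28 and Lcp2 in progressing against water. With the block they were Plcg1 in regressing against water, Lcp2 in progressing against water, and Plcg1 and Nfatc2 in grafts. Of the named pathway genes, Csk lost its regressing against water call with RLE, without the filter, with the block and with only the compared groups. In progressing against water, Cd69, Dusp2, Map3k7, Orai1 and Sh3bp2 lost theirs with only the compared groups, and Dusp2 and Orai1 also with the block. Between the outcomes, Cd40lg, Pdcd1 and Nfatc3 lost theirs with the block, Nfatc3 also with only the compared groups, and Map3k7 without the filter. Dgka lost its call in grafts with DESeq2 and with the block. Values that changed sign were all uncalled. For regressing against water, Bcl10 read 0.0705 with RLE, 0.116 without the filter, 0.0705 with DESeq2, 0.149 with the block and 0.0994 with only the compared groups, and Cd5 0.0442 without the filter and 0.029 with only the compared groups. Between the outcomes Cd3g read 0.0072 with RLE, 0.0427 without the filter and 0.0166 with DESeq2. In grafts Vav1 read -0.00093 with RLE, -0.0446 without the filter, -0.0365 with DESeq2, -0.0133 with the block and -0.013 with the crossed block, and Ubash3a -0.0149 without the filter and -0.0079 with DESeq2. With 1 library left out, further uncalled values changed sign, with these lowest and highest log2 fold changes. They were, for regressing against water, -0.15 to 0.20 for Cd5, -0.13 to 0.49 for Prkcq, -0.19 to 0.50 for Bcl10, -0.52 to 0.36 for Nfatc1, -0.79 to 0.44 for Cd2 and -0.90 to 0.76 for Ptpn22. They were, for progressing against water, -0.60 to 0.15 for Cd6, -0.50 to 1.20 for Ubash3a, -0.34 to 1.25 for Ptpn22, -0.0027 to 0.45 for Cd3e, -0.39 to 0.43 for Nfatc1, -0.27 to 0.60 for Tespa1 and -0.17 to 1.00 for Bcl10. They were, for regressing against progressing, -0.30 to 0.64 for Cd3d, -0.27 to 0.18 for Cd3g, -0.026 to 0.26 for Zap70, -0.11 to 0.52 for Grap2, -0.94 to 0.27 for Bcl10 and -0.37 to 0.15 for Nfatc1. They were, for ATO against PBS grafts, -0.40 to 0.10 for Cd3e, -0.26 to 0.20 for Vav1, -0.50 to 0.091 for Themis, -0.076 to 0.11 for Ubash3a, -0.026 to 0.17 for Fyn, -0.43 to 0.21 for Bcl10, -0.16 to 0.57 for Rasgrp1, -0.019 to 0.74 for Ptpn22, -0.078 to 0.15 for Lcp2, -1.06 to 0.45 for Cd5 and -0.42 to 0.67 for Nr4a1.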
